A study of Rattus norvegicus with 10 samples.

Results

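The proteasome is the protease complex that breaks down proteins tagged with ubiquitin. Its core particle is a barrel of alpha rings, encoded by Psma genes, that gate the entrance, and of beta rings, encoded by Psmb genes, that hold the protein-cutting sites. A regulatory particle caps the barrel: a ring of ATPases, encoded by Psmc genes, unfolds the substrate and threads it inwards, and the non-ATPase subunits, encoded by Psmd genes, bind ubiquitin, remove it and hold the cap together. Muscle and vessel wall need the complex for the turnover of worn or oxidised proteins, and inflamed tissue exchanges the cutting subunits for immunoproteasome forms.

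The members described here are the probe sets that carry a single gene symbol starting with Psma, Psmb, Psmc or Psmd and a digit, without the immunoproteasome subunits Psmb8, Psmb9 and Psmb10. That rule reads names and no signal. It found 32 probe sets of 15866 tested, which stand for 31 genes of 10411 with a symbol: 7 of the alpha ring, 6 of the beta ring, 6 by the Psmc prefix and 13 by the Psmd prefix. Psmd11 has 2 probe sets and every other gene has 1. Of these, Psmc3ip is a partner protein of Psmc3 that acts in meiotic recombination and is no proteasome subunit, and Psmd5, Psmd9 and Psmd10 are chaperones that help assemble the ATPase ring and leave the finished particle. Psmb6, Psmc6, Psmd12 and Psmd14 were not analysed here, because no probe set with a single symbol stands for them.

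Total RNA from the abdominal aorta of untreated rats of 2 inbred strains, Brown Norway (BN) and LOU, was hybridised to Affymetrix arrays, 5 per strain, with an age of 5 weeks given for every rat. The growth notes speak of rats kept to at most 18 weeks, and the extraction notes name the thoracic as well as the abdominal aorta. The series title asks for the genetic basis of arterial and renal traits of the BN rat, so the comparison is of BN with LOU. Nothing in the labels ties each array to its own rat. The p-values thus rest on how these 10 arrays vary, which may be technical, and their number limits the precision.

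Signals are linear intensity values with 1 value per probe set, scaled alike on every array. All 7 measured smooth muscle markers of 8 listed were above background on all 10 arrays, with a summed signal of 36781 to 53436 in BN and 33349 to 47292 in LOU. Background is the level under which 95% of 45 bacterial control probe sets lie, 21.2 to 49.2 over the arrays. All 32 proteasome probe sets were above it on all 10 arrays, as were 10001 of the 15866. Other cell types moved with strain or array. Summed brown adipocyte markers (5 measured of 6) ran from 1580 to 15705 in BN and from 1210.3 to 9034 in LOU, nerve and Schwann cell markers (4 of 7) from 609 to 1568 and from 404 to 691, striated muscle markers (7 of 7) from 3111 to 5053 and from 2023 to 3273, and adventitial fibroblast markers (6 of 6) from 8585 to 11225 and from 10389 to 19379. Summed lymphocyte markers (6 of 7) ran from 139.8 to 170.2 in BN and from 126.6 to 624.5 in LOU, with LOU array 1 the highest. On LOU array 1 all 6 had their highest signal, from 46.6 in Cd2 to 173.4 in Cd3g, above that array's background of 26.2. The sums on the other arrays are near background. Of the 6 markers, 0 passed it on all 10 arrays. Cd3d, Cd3e, Cd2 and Ptprc passed it on 2, Cd79b on 4 and Cd3g on 9. Single striated muscle markers went both ways, 3 higher and 4 lower in BN, and Myh1 alone ran from 918 to 3873 over the arrays. Of the markers, 1 of adipocytes, 1 of macrophages and 1 of striated muscle were above background on no array. The part of these cells in the results was not tested. In whole tissue, fewer cells of a type and less RNA per cell cannot be told apart.

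Proteasome genes of vertebrates are known to be raised together by the transcription factor Nfe2l1, and by its relative Nfe2l2, through the antioxidant response element in their promoters. Its letters, TGACNNNGC, were searched on both strands of the RefSeq promoters (GRCr8 assembly, 250 bases before to 50 after each gene start), of which 29 of the 31 genes have one. They occurred in 6 of 29: Psma3, Psmb2 and Psmb5 of the core and Psmd1, Psmd3 and Psmd9 of the regulatory side. That is 20.7% of the members, beside 12.1% of all 33469 promoters and 14.6% of the 8631 promoters of genes on the array. The stretches that hold it upstream of the start are shown, 5′ to 3′ on the gene's strand, because their letters are those of the element these regulators are known to bind. Capitals mark the match.
Psmb2, chr5:144254964-144255023, plus strand, match 68 bases before the start: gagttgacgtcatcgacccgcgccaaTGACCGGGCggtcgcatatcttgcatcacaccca
Psmb5, chr15:32047406-32047465, minus strand, match 60 bases before the start: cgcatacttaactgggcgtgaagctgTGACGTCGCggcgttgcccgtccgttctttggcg
Psma3, chr6:95219689-95219748, plus strand, match 12 bases before the start, reading the other strand: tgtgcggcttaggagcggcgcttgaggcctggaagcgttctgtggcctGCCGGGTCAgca
Psmd1, chr9:94157780-94157839, plus strand, match 165 bases before the start: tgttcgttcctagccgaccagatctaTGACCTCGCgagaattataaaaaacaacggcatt
Psmd9, chr12:39018355-39018414, minus strand, match 124 bases before the start, reading the other strand: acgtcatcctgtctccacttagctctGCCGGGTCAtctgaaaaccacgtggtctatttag
Psmd9, chr12:39018308-39018367, minus strand, match 77 bases before the start: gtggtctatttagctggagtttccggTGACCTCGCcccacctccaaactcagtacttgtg
Psmd9 was thus the 1 member with 2 matches upstream of its start. The 2 remaining matches, in Psmd3 and a second one in Psmd1, lie past the start. The Psmb2 match overlaps a CCAAT box and a GC box, and the other printed matches overlap none of the letters searched. Each match is a description of letters, not of a bound site.

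Other promoter letters were also counted on both strands. The core of ETS factor sites, CGGAAG, was in 17 of 29 member promoters, 58.6%, beside 16.6% of all promoters and 28% of those of genes on the array. The CCAAT box was in another count of 17, 58.6%, beside 37.5% and 37.6%. The GC box, GGGCGG, was in 20, 69%, beside 33.1% and 59.6%. The E-box, CACGTG, and the TATA box, TATAAA, were in 4 promoters each, 13.8%, beside 6.42% and 14.2% of all promoters and 8.92% and 8.71% of those of array genes. By particle, CCAAT was in 9 of 12 core and 8 of 17 regulatory promoters, and CGGAAG in 7 of 12 and 10 of 17.

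No proteasome probe set passed limma's test between the strains at an adjusted p of 0.05 (0 of 32), where 0.788% of all 15866 probe sets did. At an unadjusted p under 0.05 there were 4, all higher in BN: Psma7, Psmb2, Psmd8 and Psmd9. That is 4 of 32, beside 13.3% of all probe sets in either direction and 5.16% higher in BN. The count was 8 with signals under 32 raised to 32, and 2 to 5 with 1 array left out. That floor changed no member signal or difference, as the lowest member signal was 116.2. A limma p-value also draws on the spread of all other probe sets. Of the 32, 25 had a positive difference (BN minus LOU, log2 of signal) and 7 a negative one, where 46.5% of all probe sets were positive. The median difference was 0.11 over the members and −0.03 over all probe sets. The members lie in the same tissue samples and are not independent of each other, so this count of signs is a description.

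The arrays were precise enough to bound the differences. The 95% interval of every one of the 32 differences lay inside a 2-fold change in either direction, from −0.55 at the lowest to 0.95 at the highest on the log2 scale, each interval taken alone. Among all probe sets 66.5% had such an interval, and 89% of those above background on all arrays. For 28 of 32 the interval lay inside 1.5-fold, beside 34.7% of all probe sets and 51.8% of the bright ones. The 4 that reached past it were Psma7, Psmb2, Psmd8 and the dimmer Psmd11 probe set, on the side of higher BN signal. The SD of log2 signal within a strain had a median of 0.16 over the members, from 0.09 in Psmb4 to 0.46 in that Psmd11 probe set. It was 0.34 over all probe sets and 0.26 over the bright ones.

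**Figure D1:**
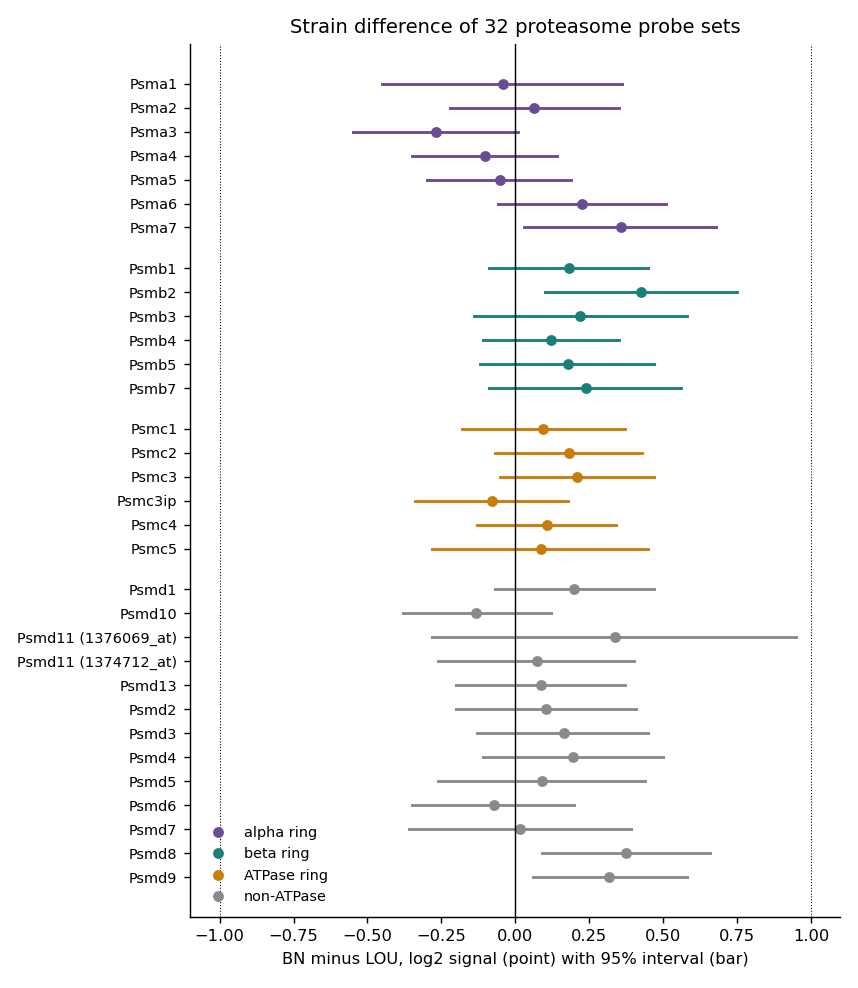
Difference between strains (BN minus LOU, log2 of signal, x axis) for the 32 probe sets, grouped by ring (y axis); points are limma estimates, bars their 95% intervals, dotted lines a 2-fold change. All 32 intervals stay between the dotted lines, and all 6 beta ring points lie to the right of 0.

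The alpha ring went in both directions. Of its 7 genes 3 were positive and 4 negative, with a median of −0.04, which was 0.01 with median centring of the arrays. Psma7 had signals of 935, 1045, 897, 795 and 816 on BN arrays 1 to 5 and of 890.1, 729, 649, 561 and 695 on LOU arrays 1 to 5. Every LOU array but the first was below every BN array. BN averaged 898 ± 101 (SD, n = 5) and LOU 705 ± 121, a difference of 0.36 (SE 0.15, interval 0.03 to 0.68, limma adjusted p = 0.326). Psma3, another gene of this ring, had the lowest difference of the 32 probe sets. Its BN signals were 130.4, 134, 135, 148 and 180.3, and its LOU signals 186, 176, 179, 178 and 153. BN array 5 alone lay inside the LOU range, and the difference was −0.27 (SE 0.13, interval −0.55 to 0.01, adjusted p = 0.395).

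Psma1 was the most variable gene of the core, with an SD of 0.28 within strains. Its BN signals were 666, 582, 836, 734 and 604, and its LOU signals 940.4, 499.6, 733, 640.2 and 756. LOU held both the highest and the lowest value, and the difference of −0.04 (interval −0.45 to 0.36, adjusted p = 0.945) turned to 0.01 with median centring of the arrays. Psma6 gave 1591 ± 128 in BN and 1368 ± 194 in LOU (0.22, adjusted p = 0.486). LOU array 1 reached 1701 in that gene, and the other 4 LOU arrays lay between 1227 and 1346. Psma4 gave 305, 351, 300.5, 271 and 342 in BN and 333, 319, 324, 352 and 351 in LOU. Psma5 gave 533, 548, 579, 507 and 551 in BN and 525, 510.4, 629, 624 and 537 in LOU. Both overlapped between strains, with differences of −0.10 and −0.05 (adjusted p = 0.73 and 0.876). Psma2 differed by 0.06, with an interval from −0.22 to 0.35.

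The beta ring was positive in all 6 genes measured, with differences from 0.12 to 0.42 and a median of 0.20. Psmb2, a structural beta subunit without a cutting site of its own, had the largest difference of the 32 probe sets. BN arrays gave 754, 793, 777, 702 and 688, and LOU arrays 511, 615, 424, 554 and 697. LOU array 5 alone reached into the BN range. The means were 743 ± 46.0 and 560.2 ± 104 (SD, n = 5), a difference of 0.42 (SE 0.14, interval 0.10 to 0.75, limma adjusted p = 0.24). The Psmb2 promoter holds the antioxidant response letters, as do those of Psma3 (−0.27), Psmb5 (0.18), Psmd1 (0.20), Psmd3 (0.16) and Psmd9 (0.32). A link of the letters with these differences was not tested.

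The cutting subunits that were measured differed less than Psmb2, but not less than the other structural subunits of the ring. Psmb5, the chymotrypsin-like subunit and the main target of proteasome inhibitor drugs, had BN signals of 1386, 1654, 1688, 1305 and 1453 and LOU signals of 1575, 1414, 1295, 1238 and 1112. The ranges overlapped over most of their length, with a difference of 0.18 (interval −0.12 to 0.47, adjusted p = 0.61). Psmb7, the trypsin-like subunit, gave 1045, 1239, 1203, 795 and 1015 in BN and 954, 898, 989, 799.5 and 811 in LOU. BN array 4 was the lowest of all 10, and the difference was 0.24 (interval −0.09 to 0.56, adjusted p = 0.526). The structural subunits Psmb1, Psmb3 and Psmb4 differed by 0.18, 0.22 and 0.12, with adjusted p-values of 0.563, 0.602 and 0.655.

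**Figure D2:**
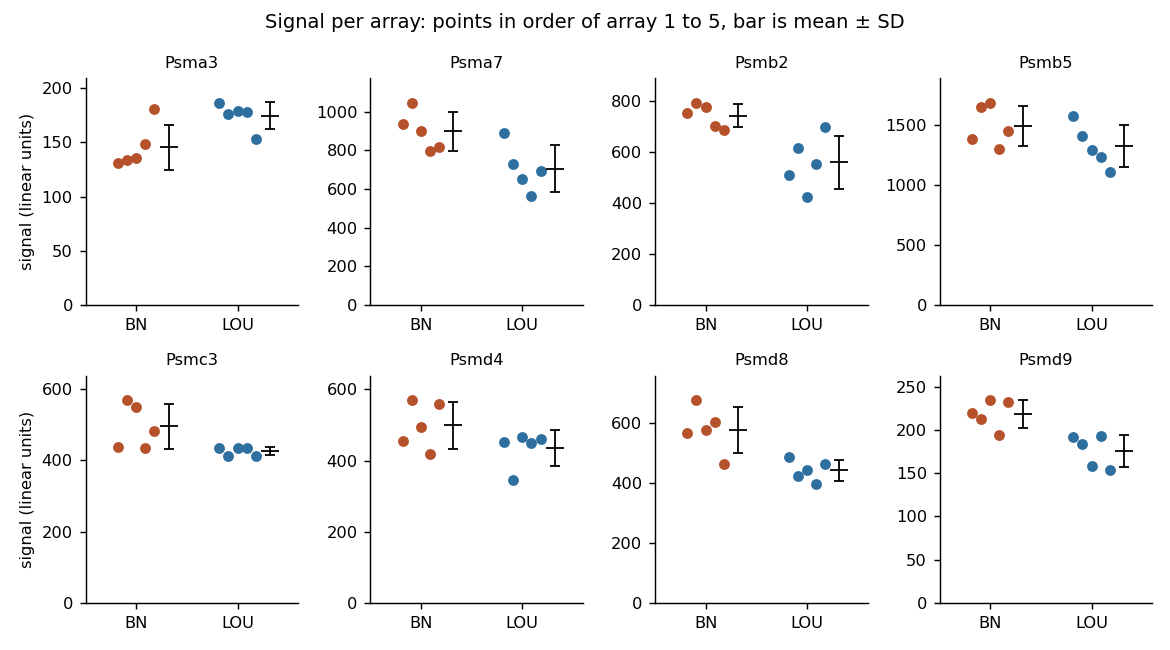
Signal on each array (linear units, y axis from 0) for 8 members in BN and LOU (x axis); points run from array 1 to array 5, and the bar beside them is the mean ± SD (n = 5). Psmd9 and Psmc3 show no overlap between strains, by narrow margins, and Psmb5 and Psmd4 overlap.

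On the regulatory side the ATPases were positive in all 5 genes measured, with differences from 0.09 to 0.21 and a median of 0.11. Psmc3 had BN signals of 438, 568, 550.5, 436 and 483 and LOU signals of 435.1, 413, 434.8, 434.4 and 412. The strains did not overlap, but the lowest BN array (435.6) and the highest LOU array (435.1) were almost equal. BN was the more spread strain, at 495 ± 61.9 against 426 ± 12.2 (SD, n = 5), and the difference was 0.21 (SE 0.12, interval −0.05 to 0.47, adjusted p = 0.481). Psmc1, Psmc2, Psmc4 and Psmc5 differed by 0.10, 0.18, 0.11 and 0.09. Psmc5 rested on BN array 3, which gave 511, where the other BN arrays ran from 330.2 to 348 and LOU from 278 to 415. Psmc3ip, which is no ATPase, gave 204, 202.5, 190.3, 160.4 and 184 in BN and 215, 170.2, 199, 202 and 207 in LOU. The strains overlapped, with a difference of −0.08 (interval −0.34 to 0.18, adjusted p = 0.812).

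The chaperone gene Psmd9, whose product is known to hold Psmc3 and Psmc6 while the ATPase ring is built, was the other member without overlap. BN signals were 219, 213, 234, 194.5 and 232, and LOU signals 191, 183, 159, 193 and 154. The gap between BN array 4 and LOU array 4, the nearest pair, was 194.5 against 193. The means were 219 ± 16.1 and 176 ± 18.6 (SD, n = 5), a difference of 0.32 (SE 0.12, interval 0.06 to 0.58, limma adjusted p = 0.279). Thus 2 of 32 members had all BN arrays above all LOU arrays, beside 1.41% of all probe sets, and 0 had all BN arrays below, beside 2.77% (4.18% in either direction). The other chaperone genes, Psmd5 and Psmd10, differed by 0.09 and −0.13, with adjusted p-values of 0.847 and 0.649. Psmd10 signals were 158, 150, 184, 172 and 153 in BN and 186, 186, 162, 166 and 197 in LOU, and the strains overlapped.

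Among the subunits of the lid, the part of the cap that removes ubiquitin chains, Psmd8 stood highest. BN arrays gave 569, 676, 577.5, 605 and 464, and LOU arrays 487, 424, 445, 397 and 465. BN array 5 fell among the LOU arrays and the other 4 lay above all of them. The difference was 0.38 (SE 0.13, interval 0.09 to 0.66, limma adjusted p = 0.236), the smallest adjusted p of the members. Psmd3, Psmd7 and Psmd13, also of the lid, differed by 0.16, 0.02 and 0.09, with adjusted p-values of 0.63, 0.978 and 0.81. Psmd6 was negative at −0.07, with BN signals of 453, 409, 439.8, 366.5 and 437.5 and LOU signals of 531, 447, 416, 445 and 382.

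Psmd11, a lid subunit known to limit proteasome assembly in stem cells, was read by 2 probe sets. The brighter gave 349 ± 31.4 in BN and 335 ± 61.3 in LOU (0.07, interval −0.26 to 0.40). The dimmer gave 152, 178, 137, 144 and 364 in BN and 126, 159, 116, 195 and 133 in LOU, a difference of 0.34 (interval −0.28 to 0.95). BN array 5 alone set that value, which was 0.08 without it, and the brighter probe set gave no such peak on that array, where all BN arrays lay between 318 and 392.

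Of the genes for ubiquitin binding and for the scaffold of the cap, Psmd4 had BN signals of 454, 569, 493, 419 and 559.6 and LOU signals of 453, 346, 466, 450 and 459.9. Psmd4 is a ubiquitin receptor of the particle. LOU array 2 lay well under the other 4, the strains overlapped, and the difference was 0.20 (SE 0.14, interval −0.11 to 0.50, adjusted p = 0.587). The scaffold gene Psmd2 gave 796, 1071, 866, 777 and 878 in BN and 766, 679.7, 880.2, 939.7 and 817 in LOU. The strains overlapped over most of their range, with a difference of 0.10 (interval −0.20 to 0.41, adjusted p = 0.785). The other scaffold gene, Psmd1, gave 280.5 ± 36.7 in BN and 243 ± 15.1 in LOU (0.20, adjusted p = 0.525).

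As means over their probe sets, the core and the regulatory particle differed between strains by nearly the same amount, which is a description with no test. The median difference was 0.18 over the 13 core probe sets and 0.10 over the 19 regulatory ones, and 0.11 over 15 without Psmc3ip and the 3 chaperones. Core members were positive in 9 of 13 and regulatory members in 16 of 19. With each probe set centred over the 10 arrays, the core mean ran from −0.07 to 0.17 in BN and from −0.14 to 0.08 in LOU. The mean of the regulatory particle minus that of the core, taken within each array, ran from −0.11 to 0.14 in BN and from −0.13 to 0.15 in LOU, nearly the same range. It averaged 0.004 in BN and −0.002 in LOU, with an SD of 0.10 within strains. The regulatory median minus the core median, another measure, was −0.07. Without BN array 2 that value was 0.03, and with quantile normalization −0.01.

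The highest and lowest signals gathered on a few arrays. BN array 2 held the highest value of 9 members and BN array 5 that of 8, while BN array 4 held the highest of 0 and the lowest of 6. LOU arrays 4 and 5 held the lowest of 6 each, and LOU array 2 of 5. The beta ring mean was 0.32 on BN array 2, 0.22 on BN array 3 and −0.07 on BN array 4, and between −0.22 and −0.03 on the LOU arrays. The alpha ring mean was highest on LOU array 1, at 0.17. On BN array 5 the non-ATPase mean was 0.20 and the core mean 0.04. Brown adipocyte markers, as centred means, were 1.82, 1.93, −0.16, 0.39 and −1.67 on BN arrays 1 to 5, so that BN arrays 2 and 5, with the most highest values, were at opposite ends of them. Their part in the proteasome values was not tested.

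**Figure D3:**
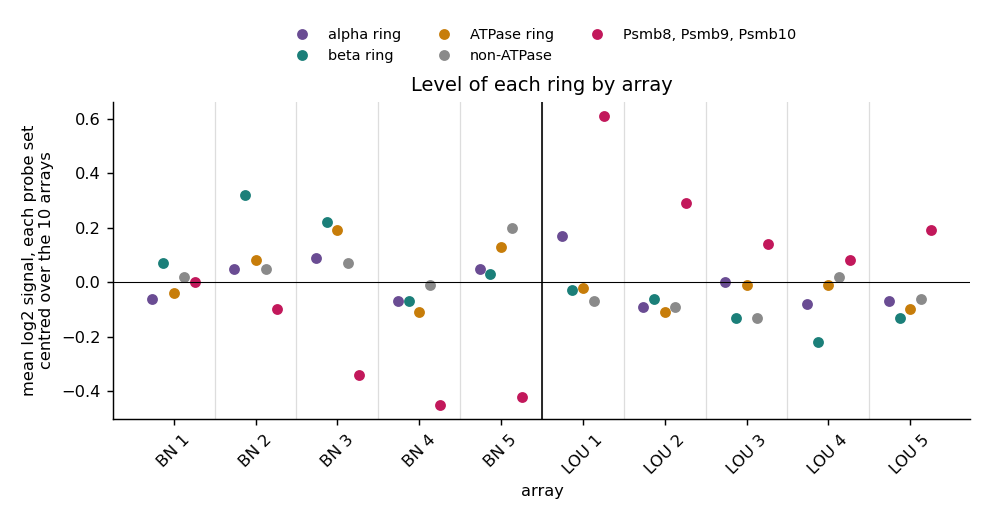
Mean log2 signal of each ring on each array (y axis; every probe set centred over the 10 arrays), with BN arrays left and LOU arrays right of the black line. The 4 constitutive groups stay between −0.22 and 0.32, and the immunoproteasome genes run from 0.61 on LOU array 1 to −0.45 on BN array 4.

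The immunoproteasome genes, whose products replace the cutting subunits under interferon, differed in the direction opposite to the beta ring. Psmb8 gave 204, 186, 161, 175 and 197 in BN and 367, 289, 244, 226 and 259 in LOU, without overlap, a difference of −0.57 (limma adjusted p = 0.138). Psmb9 and Psmb10 differed by −0.66 and −0.34 (adjusted p = 0.166 and 0.449), so 0 of 3 passed. Psmb8 takes the place of Psmb5 and Psmb10 that of Psmb7, and the log2 ratio of each pair within an array was compared between strains. This comparison was added with the Psmb8 difference known, so the ratios are a description, with no test.

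The log2 ratio of Psmb8 to Psmb5 signal was −2.76, −3.15, −3.39, −2.90 and −2.88 on BN arrays and −2.10, −2.29, −2.41, −2.46 and −2.10 on LOU arrays. All BN arrays lay below all LOU arrays, with means of −3.02 ± 0.25 and −2.27 ± 0.17 (SD, n = 5). The difference was −0.75. The ratio of Psmb10 to Psmb7 was −2.80, −3.36, −3.40, −3.0 and −3.49 in BN and −2.54, −2.47, −2.63, −2.91 and −2.59 in LOU. BN array 1 lay inside the LOU range, and the other 4 BN arrays below it. That difference was −0.58. Lymphocyte and macrophage markers were highest on LOU array 1, with centred means of 1.99 and 0.74. Without it the differences were −0.70 and −0.56. Without LOU array 1 and BN array 3 together, a choice made after seeing the data, they were −0.61 and −0.51. None of the 4 genes passed its own test, and a ratio of 2 probe sets does not give the share of either subunit in the particle.

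**Figure D4:**
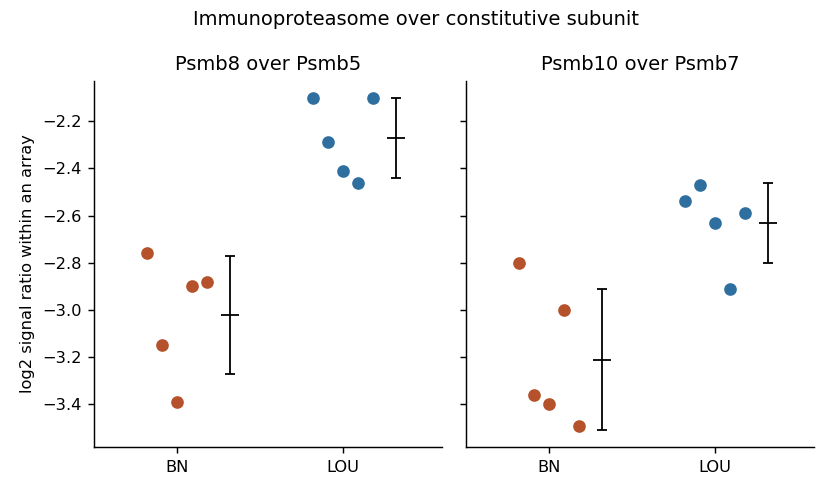
Log2 ratio of signal within each array (y axis) for Psmb8 over Psmb5 and for Psmb10 over Psmb7, in BN and LOU (x axis); points run from array 1 to array 5, and the bar beside them is the mean ± SD (n = 5). BN arrays lie lower in both pairs, without overlap in the first.

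Genes around the proteasome, read from the brightest probe set of each, gave 0 past limma's test in every list. Of the activators and the inhibitor of the core (4 measured of 5), 1 was positive and 3 negative, with a median of −0.12. Psme1, a subunit of the interferon-inducible activator that opens the core's gate, gave 868, 844, 838, 763 and 871 in BN and 1039.7, 1009, 1019, 887 and 943 in LOU. The strains did not overlap, with a difference of −0.23 (SE 0.10, limma adjusted p = 0.378). Its partner Psme2 differed by −0.12 and the nuclear activator gene Psme4 by 0.18.

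The list of proteasome assembly factors (7 of 8 measured) had a median of 0.05 (−0.01 to 0.08 with 1 array left out). Pomp, which guides the beta ring into place, differed by 0.18 (limma adjusted p = 0.566) and Ecpas by −0.15. A list of ubiquitin receptors, shuttles and other proteasome-bound proteins (9 of 12) had a median of 0.10 (−0.03 without BN array 3). Its deubiquitinases, Usp14 and Uchl5, were not among the 9. The differences ran from −0.18 in Ubqln4 to 0.23 in Txnl1. Regulators of proteasome genes (8 of 9) had a median of 0.07, and of −0.05 without BN array 5. Nfe2l1 gave 206 ± 18.8 in BN and 197 ± 22.5 in LOU (SD, n = 5), a difference of 0.07 (SE 0.12, adjusted p = 0.852), and Nfe2l2 differed by −0.13. Nfya, a subunit of the CCAAT-binding factor, ran from 83.5 to 118.8 in BN and from 93.8 to 167.3 in LOU (−0.45, limma adjusted p = 0.303). Its partner Nfyb was above background on 0 of 10 arrays.

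A mixed list of ubiquitin-activating and -conjugating enzymes and cullin ligase subunits (11 of 16 measured) had a median of −0.10, with 5 positive and 6 negative. That median was −0.01 without BN array 1 or without LOU array 1. Uba1, the main ubiquitin-activating enzyme, differed by 0.09, Rbx1, the RING subunit of cullin ligases, by 0.26, and Skp1, the adaptor of those ligases, by −0.24. The largest value, 0.67 in Ube2d1, came from signals of 30.7 ± 11.1 and 19.4 ± 6.92 (SD, n = 5), above background on 1 of 5 BN arrays and 0 of 5 LOU arrays. Genes of the p97 segregase, which pulls ubiquitin-tagged proteins out of membranes and complexes for the proteasome (8 of 9 measured), had a median of 0.17, with 6 positive. Vcp, the ATPase itself, differed by −0.08 (adjusted p = 0.798) and its cofactor Ufd1 by 0.22. Faf1, another cofactor, gave 166 ± 20.3 in BN and 200.2 ± 11.6 in LOU without overlap (−0.28, adjusted p = 0.359). None of these medians was further from that of all probe sets, −0.03, than the immunoproteasome's −0.57.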

How the data were processed

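The authors deposited 1 table of intensity values on a linear scale, a signal per probe set for each of 10 arrays. The submitters' processing notes name RMA, with no version. The deposited intensity values reach 22219.9, unlike a log2 RMA table, and their 2% trimmed means lie between 200.05 and 200.06, from which a linear scale and scaling of each array to 1 mean were inferred. Log2 of signal was computed here, with the 4 values of 0 set to 0.1. A 2% trimmed mean leaves out the highest and the lowest 2% of values, so a few strong transcripts do not enter it.

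A linear model per probe set (lmFit, then eBayes, of limma 3.58.1 under R 4.3.3) compared the strains, two-sided, with no other term. It covered 15866 probe sets, without 57 controls. Benjamini-Hochberg adjusted p-values run over all of these, with a threshold of 0.05. Summaries and plots were made in Python 3.11.15. Gene symbols came from the platform annotation, updated through the RefSeq table of GRCr8: 12783 probe sets had 1 symbol, and 312 had several and were not named. Promoter sequences are RefSeq's.

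Members and lists were chosen with earlier results of these data known. The rule gives array by array Psma1, Psmd4, Psmb5, Psmb7, Psmd2, members without overlap, and the 3 highest and 3 lowest differences in each particle. Of each other list it allows up to 3 genes of smallest adjusted p, which was not followed throughout. Plaa, Ubxn4, Ubqln1, Zfand5 and Ube2k had a smaller adjusted p than some genes named from their lists, and were left out. Nfe2l1, Nfe2l2, Nfyb, Uba1, Vcp and further genes named there were chosen for their role, or as the end of a range, after values were seen. Psmc3ip is counted with the Psmc prefix wherever 6 or 19 probe sets are given. The test was checked on simulated arrays. Alternatives changed the scaling, the treatment of dim signals, the variance model, the weighting of arrays, the arrays left out and the choice among a gene's probe sets, and 1 used replicate numbers as a block.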

Additional observations from a re-analysis of the deposited data

Results flagged for a closer look

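In 5 of 68 groups of 5 values (7.35%), 1 array lay far from the other 4 by Dixon's test at its 95% level, which marks about 1 in 20 groups by chance. Psmc5 was 511.4 on BN array 3 and between 330.2 and 347.9 on the other BN arrays. The dimmer Psmd11 probe set was 363.7 on BN array 5 and between 137.2 and 177.9 on the others. Psmd13 was 246.7 on BN array 2, below a range of 303.2 to 321.8. Psma6 was 1700.6 on LOU array 1, above a range of 1226.5 to 1346. Psmd4 was 346.2 on LOU array 2, below a range of 450 to 465.8. The 5 flags fall on 5 different arrays.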

How the results depend on the processing

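In all 21 alternative fits 0 proteasome probe sets passed the test, and the smallest adjusted p of a member ran from 0.119 to 0.391. The core median ran from 0.12 to 0.23 and the regulatory median from 0.08 to 0.15. Regulatory minus core was −0.07, and −0.10 to 0.03 with 1 array left out, the 0.03 without BN array 2; it was −0.01 with quantile normalization, where the core median was 0.12 and the regulatory median 0.11. The beta ring was positive in 6 of 6 throughout. Over all probe sets 125 passed; the count was 253 without the dimmest 40%, 204 with a pseudocount of 16, 242 with a variance trend, 63 to 127 with 1 array left out and 75 without BN array 3 and LOU array 1. With the replicate number as a block 23 passed. Deviations of same-numbered arrays of the strains correlated between −0.0453 and 0.0147, so the numbers were not taken to pair the arrays. The Psma1 difference of −0.04 turned to 0.01 with median centring and with array weights, and ran from −0.16 to 0.06 with 1 array left out. The median of receptors, shuttles and other proteasome-bound proteins ran from −0.03 to 0.15 with 1 array left out. When the probe sets of a gene were averaged that median was −0.00, and the p97 median was 0.09. The Psmb8 to Psmb5 difference ran from −0.81 to −0.65 and the Psmb10 to Psmb7 difference from −0.68 to −0.51 with 1 array left out. With 1 array left out, the medians of the other lists ran from −0.05 to 0.09 for regulators, −0.01 to 0.08 for assembly factors, −0.18 to −0.01 for the ubiquitin list, −0.19 to −0.05 for activators and the inhibitor, 0.14 to 0.18 for p97 and −0.62 to −0.46 for the immunoproteasome. Members at an unadjusted p under 0.05 numbered 8 with a floor of 32, which changed no member signal. Precision was lower for dim signals: the SD within strains had a median of 0.34 over all probe sets and 0.26 over those above background on all arrays. The causes of these shifts were not tested.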
